A study of Mus musculus with 7 samples.

Results

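The GABA-A receptor is the main fast inhibitory receptor of the brain, and 7 of its subunit genes were followed in mouse hippocampus: the alpha subunits Gabra2, Gabra3, Gabra4 and Gabra5, the beta subunits Gabrb1 and Gabrb2, and the delta subunit Gabrd. They were chosen by symbol, 7 rows of the 21965 genes in the deposited table, and all 7 passed the filter on low counts. RNA-seq was run on 7 hippocampal libraries. The 3 Control libraries came from mice labelled as blank controls. The 4 NIHHL libraries came from the model of hidden hearing loss induced by noise (NIHHL), in which mice were exposed to noise of 110 dB for 2 h, with tissue from both groups collected 1 month after induction. Hidden hearing loss is a model in which noise harms hearing without the lasting threshold shift of ordinary deafness, and the study asked which hippocampal genes go with the memory impairment of these mice. The sources used here do not give the strain, age or sex of the mice, nor whether the libraries of a group were made from different mice. The p-values therefore refer to the spread between these samples, which may be technical.

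GABA-A receptors are pentameric chloride channels opened by the transmitter GABA. The alpha subunit largely sets where a receptor sits and which drugs act on it, beta subunits are needed for assembly and help form the GABA binding site, and a gamma or delta subunit completes the ring. Receptors with alpha5 are known for a tonic current in hippocampal pyramidal cells, and receptors that join alpha4 with delta carry a tonic, neurosteroid-sensitive current in dentate granule cells. Alpha2 receptors are known at the axon initial segment of pyramidal cells, and alpha3 is a subunit of scattered neurons and of monoaminergic cell groups.

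Total counts were between 14871367 and 24515138 per library. Defining genes of the hippocampus were present in every library: Prox1 of dentate granule cells was at 101 to 166 CPM (counts per 1000000 counts), Wfs1 of CA1 pyramidal cells at 65.7 to 131 CPM and Cpne4 of CA3 pyramidal cells at 80.4 to 106 CPM. The libraries differed in 2 respects that touch these genes. One was choroid plexus: the summed level of 10 of its markers was 205 to 7146 CPM in Control and 668 to 8701 CPM in NIHHL. The other was a trend with transcript length, given as Spearman's rho, over 8382 genes, of exon length with the deviation in that library from the 7-library mean; genes are not independent replicates. It ran from -0.58 in Control replicate 2 to 0.52 in NIHHL replicate 4, with 0.45 in Control replicate 1. The subunit genes have unequal exon lengths, 13838 bases for Gabrb1, 7640 for Gabra2, 6360 for Gabrb2, 6083 for Gabra4, 3924 for Gabra3, 2974 for Gabra5 and 2875 for Gabrd. For the 7 subunits, fold changes are therefore given on the scale of the main fit and also with a correction for length.

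In the mouse genome 3 of the 7 genes lie together on chromosome 5. In the GENCODE M21 annotation of GRCm38, Gabra2 spans chr5:70957597-71095849 and Gabra4 chr5:71569749-71658308, both on the minus strand, and Gabrb1 spans chr5:71658113-72149037 on the plus strand. Gabra4 and Gabrb1 are head to head and share 46 exon bases on opposite strands, where reads cannot be assigned without strand information. Gabra3 lies at chrX:72432681-72656848 and Gabra5 at chr7:57407672-57510059, both on the minus strand; Gabrb2 is at chr11:42419757-42629028 on the plus strand and Gabrd at chr4:155384980-155398112 on the minus strand. Gabra5 shares 148 exon bases with the antisense gene Gm9962. The sources used here do not give the build behind the deposited counts, and these positions are those of the annotation.

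RefSeq (GRCm38.p6) gave start-site windows for 6 of the 7 genes, all but Gabrd. The 250 bases before a start are shown for Gabra2 and for the inner start of Gabrb1, 2 of the 3 chromosome 5 genes whose levels had a like pattern over the libraries, for Gabra3, the subunit with the largest difference between the groups, and for the first start of Gabrb2, whose group means were nearly equal. Capitals mark a match on either strand to 1 of 4 motifs: TATAAA (the TATA box), TGACGTCA (the cAMP response element), the motif of nuclear respiratory factor NRF1 and GCGTGGGCG (EGR factors). The windows are 5′ to 3′ on each gene's own strand: Gabra2 at chr5:71095850-71096099 (minus), Gabra3 at chrX:72656920-72657169 (minus), Gabrb1 at chr5:71699682-71699931 (plus) and Gabrb2 at chr11:42420190-42420439 (plus).
Gabra2: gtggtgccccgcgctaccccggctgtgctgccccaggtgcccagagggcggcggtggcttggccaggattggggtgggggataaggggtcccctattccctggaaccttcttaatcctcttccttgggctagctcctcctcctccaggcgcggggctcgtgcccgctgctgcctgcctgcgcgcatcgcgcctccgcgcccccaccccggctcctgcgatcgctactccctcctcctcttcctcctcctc
Gabra3: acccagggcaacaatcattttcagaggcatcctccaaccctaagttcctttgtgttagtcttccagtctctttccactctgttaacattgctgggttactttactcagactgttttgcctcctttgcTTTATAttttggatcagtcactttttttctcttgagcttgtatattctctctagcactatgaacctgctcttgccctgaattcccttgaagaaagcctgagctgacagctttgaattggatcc
Gabrb1: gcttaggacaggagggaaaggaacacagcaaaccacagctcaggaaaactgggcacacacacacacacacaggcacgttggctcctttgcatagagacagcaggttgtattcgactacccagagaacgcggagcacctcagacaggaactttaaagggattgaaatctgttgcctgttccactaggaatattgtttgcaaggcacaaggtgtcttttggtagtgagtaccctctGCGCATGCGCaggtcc
Gabrb2: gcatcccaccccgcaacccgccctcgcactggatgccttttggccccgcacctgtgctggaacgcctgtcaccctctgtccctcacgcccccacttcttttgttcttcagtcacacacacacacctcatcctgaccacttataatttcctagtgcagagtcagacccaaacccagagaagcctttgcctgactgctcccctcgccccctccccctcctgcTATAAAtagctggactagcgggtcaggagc
The Gabra2 window is 70.0% G and C and holds none of the 4 motifs. The Gabra3 window is 42.4% G and C and holds the TATA letters on the opposite strand, 123 bases before the start. Gabrb1 has an outer start, 387 bases from that of Gabra4, whose window overlaps a Gabra4 exon, and the inner start shown, 42.0 kb further on, where the NRF1 letters begin 16 bases before the start. In Gabrb2 the TATA letters begin 30 bases before the start. The genes have 10 windows in all. Among those not shown, Gabra4, Gabra5, the outer start of Gabrb1 and starts 2 and 3 of Gabrb2 hold none of the 4 motifs. The window of start 2 of Gabra3 holds the same TATA letters, 235 bases before that start. Over all 32851 RefSeq windows of 250 bases, 12.4% hold the TATA letters, 0.782% those of NRF1, 1.55% the cAMP response element and 0.536% the EGR letters. A match describes the letters only.

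Levels between genes were compared per length, as TPM (counts per base of exon, scaled to a sum of 1000000 in each library) computed from the deposited counts and the exon lengths. Gabra5 was the most abundant of the 7, at 222 ± 14.99 TPM (mean ± SD, n = 7 libraries), and its lowest library, at 203 TPM, was above every library of the other 6. Gabra3 followed at 58.7 ± 6.62, Gabra4 at 48.8 ± 5.37, Gabrb1 at 46.5 ± 7.12 and Gabrb2 at 38.8 ± 4.68 TPM. The ranges of neighbours in this order overlapped from Gabra3 to Gabrb2. Gabra2 at 22.1 ± 4.26 and Gabrd at 20.6 ± 2.04 TPM were the lowest and overlapped each other, while every library of Gabrb2 lay above every library of Gabra2. Gabra5 made up 63.1% of the 4 alpha subunits per length (59.5% to 66.4% over 7 libraries), Gabra3 16.8% ± 2.09, Gabra4 13.9% ± 0.742 and Gabra2 6.25% ± 0.827 (SD, n = 7). The share of Gabra5 was 62.7% ± 3.47 in Control (n = 3) and 63.5% ± 1.14 in NIHHL (n = 4). Of the 2 beta subunits, Gabrb1 was 54.0% ± 3.36 in Control and 54.7% ± 2.82 in NIHHL. With the longest transcript as the length, Gabra4 (59.3 TPM) stood above Gabra3 (51.5 TPM) and Gabrb2 (50.7 TPM) above Gabrb1 (38.4 TPM), so the middle of the order depends on the length used.

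**Figure D1:**
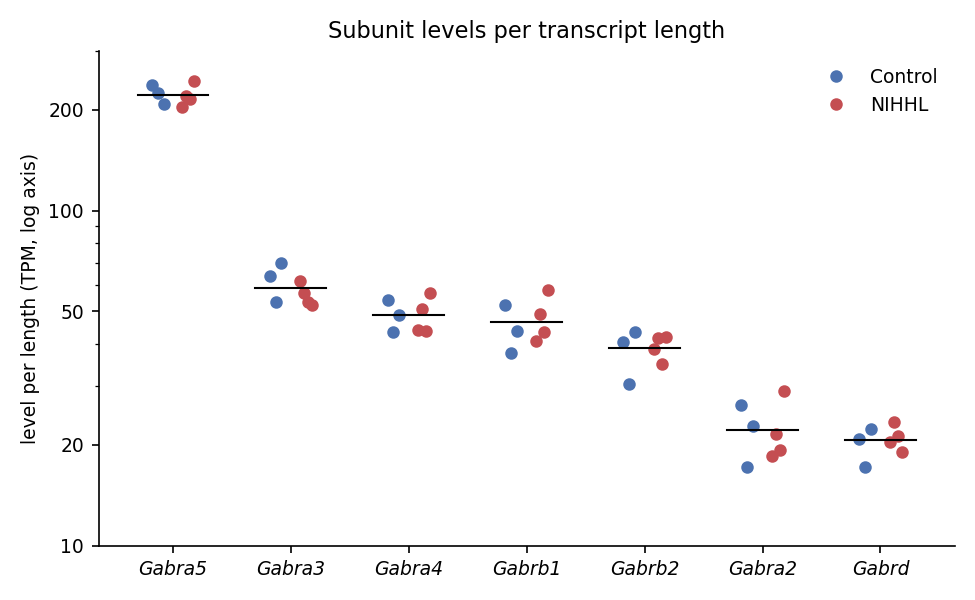
Level per length of the 7 subunits in each library (vertical axis, TPM on a log scale; blue, 3 Control libraries; red, 4 NIHHL libraries; black line, mean of 7). Gabra5 lies above 203 TPM in every library and the other subunits at most at 69.9 TPM, with Control and NIHHL points intermixed in each gene.

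The first comparison asked whether any subunit differed in the hippocampus 1 month after noise. In edgeR's quasi-likelihood fit 0 of the 7 had an adjusted p under 0.05, the threshold used for a call, and 0 of 14417 genes were called (0%). Of all genes 523 (3.63%) had an unadjusted p under 0.05, with 1.31% lower and 2.32% higher in NIHHL, and of the subunits 1 of 7, Gabra3, lower. With the length correction 4.71% of all genes and again 1 of the 7 subunits, Gabra3, had an unadjusted p under 0.05. For all 7 the Control and NIHHL values overlapped, while over all genes 5.20% did not overlap, 2.37% with NIHHL lower. Log2 fold changes, NIHHL minus Control, were below 0 in 5 of 7 subunits and above 0 in 2, against 50.1% and 49.9% of all genes, and their median was -0.05 against -0.00045 over all genes. DESeq2's test and limma-voom also called 0 of the 7, with 4 of 18177 genes (0.0220%) called by DESeq2 and 0 by limma-voom (0%).

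Gabra3 showed the largest difference of the 7. Its level was 79.0, 74.1 and 88.0 CPM in Control replicates 1 to 3 and 77.8, 70.7, 67.3 and 63.5 CPM in NIHHL replicates 1 to 4. Of the NIHHL libraries 3 lay below every Control library, and NIHHL replicate 1 lay within the Control range. The group means were 80.4 ± 7.06 CPM in Control (SD, n = 3) and 69.8 ± 6.05 CPM in NIHHL (SD, n = 4). As TPM they were 62.3 ± 8.43 and 56.0 ± 4.16. On that scale only NIHHL replicate 4, at 52.2 TPM, lay below the lowest Control library, replicate 2 at 53.2 TPM. The log2 fold change was -0.20 (SE 0.09, 95% interval -0.39 to -0.01), which is 13.1% lower, or between 23.9% and 0.824% lower over the interval. The unadjusted p was 0.0392, rank 400 of 14417, and the edgeR adjusted p was 0.996. The exact two-sided permutation test of this single gene gave p = 0.114, and the smallest p it can give with 3 against 4 libraries is 0.0286. With the length correction the value was -0.19 (SE 0.08). The sign was the same in 17 of 17 alternatives, from -0.26 without NIHHL replicate 1 to -0.13 without Control replicate 3. The unadjusted p was under 0.05 in 10 of these 17 and the adjusted p in none, the lowest being 0.664. Beside this, 9 of 10 ependymal markers had an unadjusted p under 0.05 (3.63% of all genes), all higher in NIHHL and 0 called. Their summed level was 68.1 to 87.4 CPM in Control and 107 to 123 CPM in NIHHL. The marker lists were chosen with earlier results of these data known, so this count is no independent support. Of 10 oligodendrocyte markers 5 had an unadjusted p under 0.05, all higher in NIHHL, and the sums were 7274 to 9113 and 8385 to 9841 CPM. Other lists leaned 1 way too. Of 10 astrocyte markers 10 had a log2 fold change above 0, and of 12 CA2 and CA3 pyramidal cell markers 10 had one below 0. The thalamus list was mixed: of 10 markers 6 had a log2 fold change above 0 and 4 below. Of these 10, 3 had an unadjusted p under 0.05, all higher in NIHHL. Their summed level was 164 to 210 CPM in Control and 194 to 208 CPM in NIHHL. The part of these cell types in the Gabra3 values was not tested.

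Gabra5, the subunit of extrasynaptic receptors in pyramidal cells, had 223, 237 and 198 CPM in the Control libraries and 195, 208, 205 and 225 CPM in NIHHL. Control replicate 3 lay below 3 of the 4 NIHHL libraries and Control replicate 2 above all 4. The ranges of the groups overlapped between 198 and 225 CPM. The log2 fold change was -0.07 (SE 0.08, 95% interval -0.25 to 0.10), so a fall of more than 15.7% or a rise of more than 6.99% lies outside the interval. This is the narrowest interval of the 7, at the deepest counts per kilobase. The edgeR adjusted p was 0.996. With the length correction the log2 fold change of Gabra5 was -0.04 (SE 0.08), and leaving out 1 library gave values from -0.14 without Control replicate 3 to -0.01 without Control replicate 2.

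Gabra4, which joins delta in dentate granule cells, had 104, 93.8 and 95.3 CPM in the Control libraries and 86.0, 98.7, 85.6 and 107 CPM in NIHHL. NIHHL held both the highest library, replicate 4, and the lowest, replicate 3. The log2 fold change was -0.05 (SE 0.09, 95% interval -0.25 to 0.15; edgeR adjusted p = 0.996), and -0.06 (SE 0.08) with the length correction. It was -0.11 without NIHHL replicate 4 and -0.0042 without Control replicate 1. Gabrd, the delta subunit itself, had 18.9, 17.6 and 20.6 CPM in the Control libraries and 18.9, 21.4, 19.5 and 16.9 CPM in NIHHL. Its log2 fold change was 0.01 (SE 0.10, 95% interval -0.21 to 0.24; edgeR adjusted p = 1.00), and 0.04 (SE 0.10) with the length correction. For both partners the means of the groups differed by less than the SD within a group.

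Beside this, 10 of 10 dentate granule cell markers had a log2 fold change above 0 (median 0.21, with 0 called), against 49.9% of all genes. Their summed level was 588 to 755 CPM in Control and 615 to 811 CPM in NIHHL. The part of granule cell content in the levels of Gabra4 and Gabrd was not tested. In bulk tissue, fewer cells of a type and less RNA per cell cannot be told apart.

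Gabra2, the subunit of axon initial segments, had 63.2, 46.7 and 56.0 CPM in the Control libraries and 45.7, 52.3, 47.3 and 68.6 CPM in NIHHL. It was the most variable of the 7, with an SD of 0.23 in log2 CPM over the 7 libraries against 0.11 for Gabra5. Its log2 fold change was -0.05 (SE 0.15, 95% interval -0.38 to 0.29; edgeR adjusted p = 0.996), and -0.06 (SE 0.13) with the length correction. NIHHL replicate 4 was the highest library and the other 3 NIHHL libraries lay below Control replicates 1 and 3. Leaving out Control replicate 2 and NIHHL replicate 4, the libraries at the ends of the length trend, gave -0.29 (SE 0.08, edgeR unadjusted p = 0.00481, adjusted p = 0.641). These 2 were also the lowest Control and the highest NIHHL library of Gabra2. Leaving them out therefore lowers the value by construction, and that p is no support for a difference. Leaving out Control replicate 1 gave a log2 fold change of 0.06. The sign was also above 0 without NIHHL replicate 1 (0.02) and without NIHHL replicate 3 (0.0072), so the direction of the Gabra2 difference turned on single libraries.

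The beta subunits gave values near 0. Gabrb1, the longest transcript of the set, had 229, 185 and 195 CPM in the Control libraries and 182, 217, 192 and 249.7 CPM in NIHHL, with a log2 fold change of 0.05 (SE 0.11, 95% interval -0.20 to 0.30; edgeR adjusted p = 0.996). With the length correction it was 0.02 (SE 0.07). Gabrb2, the beta subunit that commonly pairs with alpha1, had 81.2, 68.4 and 88.8 CPM in the Control libraries and 79.4, 84.5, 71.1 and 82.8 CPM in NIHHL. Its group means were 79.5 ± 10.3 (SD, n = 3) and 79.4 ± 5.97 CPM (SD, n = 4). The 95% interval of its log2 fold change was -0.21 to 0.21, a change between 13.6% lower and 15.7% higher, and with the length correction the value was -0.0078 (SE 0.08).

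**Figure D2:**
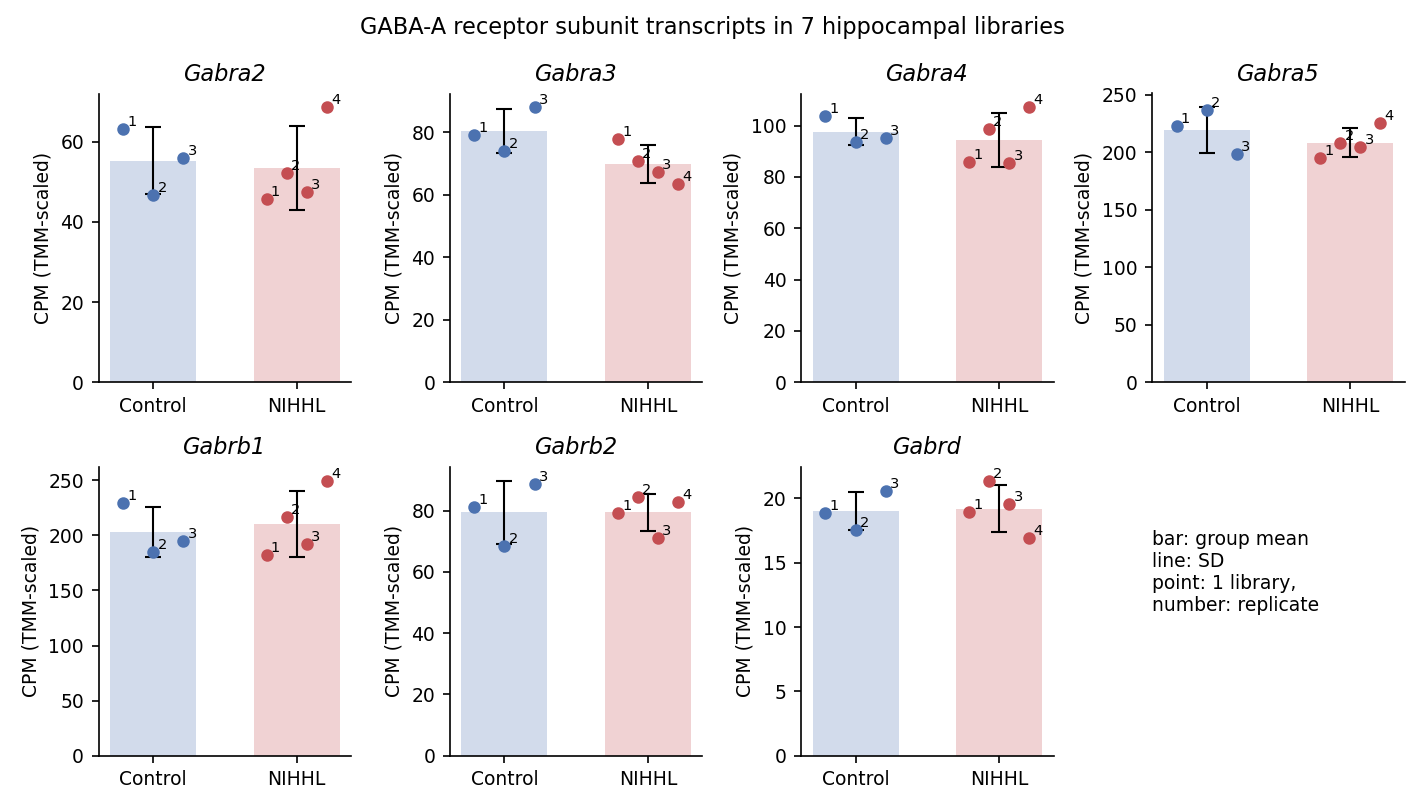
TMM-scaled CPM of each subunit (vertical axes from 0) in 3 Control (blue) and 4 NIHHL (red) libraries; bars are group means, lines the SD, and numbers the replicates. Gabra3 has 3 NIHHL libraries below every Control library, and in all 7 genes the groups overlap.

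**Figure D3:**
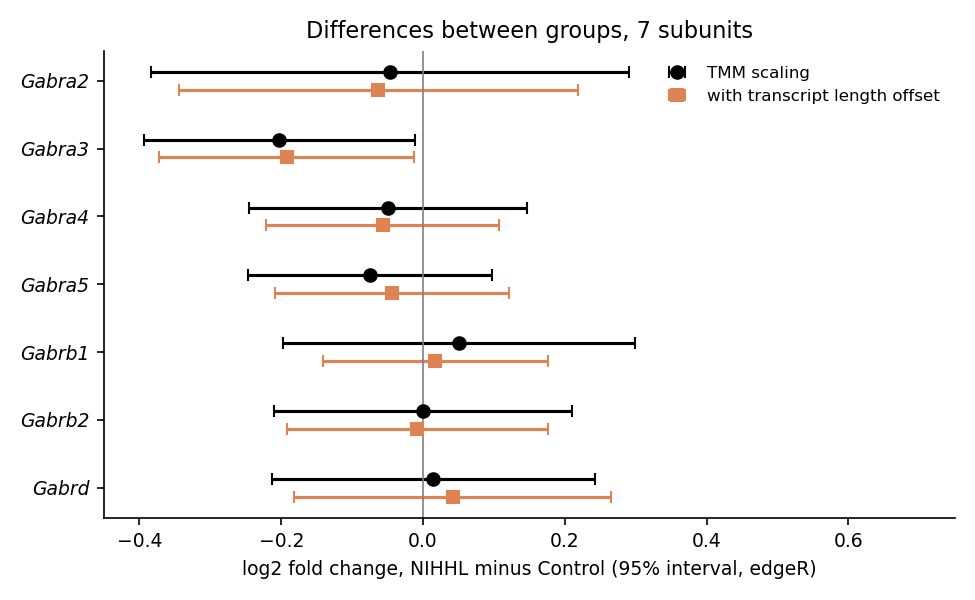
Log2 fold change of each subunit, NIHHL minus Control, with its 95% interval from edgeR (black, TMM scaling; orange, with the transcript length offset). The unadjusted interval of Gabra3 lies between -0.39 and -0.01 and those of the other 6 subunits include 0.

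The second question was how the subunits vary together between libraries. The chromosome 5 genes Gabra2, Gabra4 and Gabrb1 had a like pattern: all 3 were highest in NIHHL replicate 4 and second highest in Control replicate 1, and low in NIHHL replicates 1 and 3. Over 7 libraries Pearson's r of log2 CPM was 0.92 for Gabra2 with Gabrb1, 0.90 for Gabra2 with Gabra4 and 0.89 for Gabra4 with Gabrb1. Spearman's rho was 0.96, 0.86 and 0.89. The exact permutation p of r was 0.00417, 0.00893 and 0.00635, and each was 0.0625 after Benjamini-Hochberg adjustment over the 21 pairs of subunits, so none passed. The permutation p of rho was 0.00278, 0.0238 and 0.0123 before and 0.0583, 0.167 and 0.129 after adjustment. Leaving out the 2 libraries farthest from the median of the first gene gave r = 0.62, 0.71 and 0.90 over 5 libraries; for both pairs with Gabra2 these were Control replicate 1 and NIHHL replicate 4.

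The same 2 libraries, NIHHL replicate 4 and Control replicate 1, had the highest length trends, 0.52 and 0.45, and these 3 genes have long transcripts. Gabrb2 has a longer exon sum than Gabra4, but its longest transcript is shorter (3989 against 4108 bases). Its r was 0.58, 0.48 and 0.46 with Gabra2, Gabra4 and Gabrb1 (exact permutation p = 0.170, 0.277 and 0.295, each 0.582 after adjustment). After the length correction these r of Gabrb2 were 0.43, 0.35 and 0.08 (exact permutation p = 0.331, 0.444 and 0.855, adjusted 0.583, 0.666 and 0.977). For Gabra2 with Gabrb1, Gabra2 with Gabra4 and Gabra4 with Gabrb1 the corrected r was 0.80, 0.87 and 0.86 (exact permutation p = 0.0321, 0.0147 and 0.0135, adjusted 0.135, 0.118 and 0.118). Gabra5, on chromosome 7, had r of a like size after the same correction, 0.86 with Gabrb1, 0.82 with Gabra4 and 0.70 with Gabra2 (exact permutation p = 0.0169, 0.0310 and 0.0931, adjusted 0.118, 0.135 and 0.279), against 0.40, 0.57 and 0.33 without it. The SD of log2 CPM over the libraries went from 0.17 to 0.10 for Gabrb1, from 0.23 to 0.19 for Gabra2 and from 0.12 to 0.11 for Gabra4 with the correction, and stayed at 0.16 for Gabra3. Gabrb1 and Gabra4 also share the exon bases described above. Gabra3, the X-linked subunit, had r of -0.14, -0.16 and -0.44 with Gabra2, Gabra4 and Gabrb1 (exact permutation p = 0.759, 0.719 and 0.318, lowest adjusted p 0.582). Gabrd and Gabra4, which form receptors together, had r = -0.27 (exact permutation p = 0.549, adjusted 0.641). The head-to-head arrangement on chromosome 5 is a description of position, and its part in the shared pattern was not tested.

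**Figure D4:**
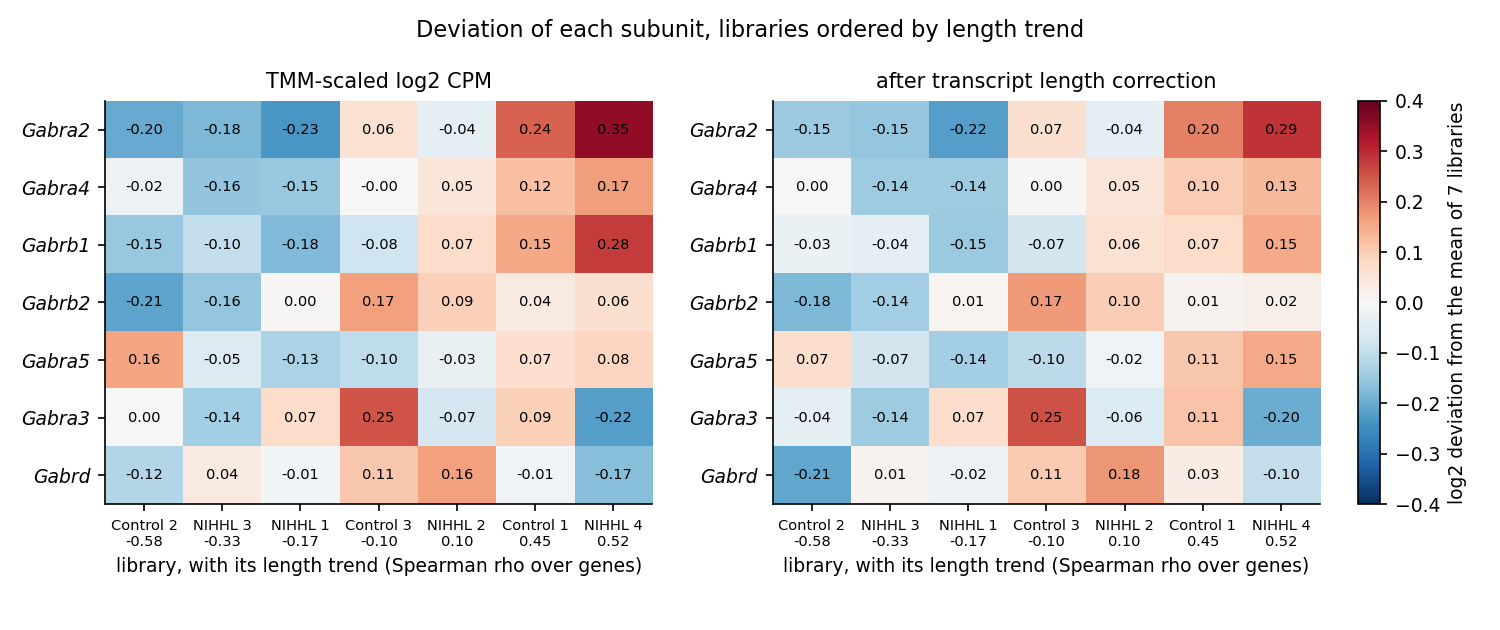
Log2 deviation of each subunit (rows) from the mean of 7 libraries (columns, ordered by the length trend printed under each name), as TMM-scaled log2 CPM (left) and after the length correction (right); red is above and blue below the mean. Without the correction Gabra2, Gabra4 and Gabrb1 are below the mean in the 3 libraries with the lowest length trend and above it in the 2 with the highest, and the spread of Gabrb1 is smaller on the right.

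The genes whose pattern over the 7 libraries was most like each subunit were taken from 8384 genes with a mean log2 CPM above 4, by Pearson's r and as a description only. For Gabra2 they were Kpna4 (0.99) and Tnik (0.99), for Gabra4 Akap11 (0.99) and Cacna2d1 (0.99), and for Gabrb1 Sorbs2 (0.99) and Ecpas (0.99). These 6 genes have long exon sums, from 8940 to 27851 bases. With the length correction r stayed at 0.99 for Gabra4 with Cacna2d1, the alpha2delta subunit of calcium channels, and was 0.94 with Akap11. For Gabra2 it was 0.94 with Kpna4 and 0.92 with Tnik. For Gabrb1 it went to 0.61 with Ecpas and 0.38 with Sorbs2. For Gabra3 the most alike genes were Kcnip3 (0.96) and Ttc9b (0.96), and for Gabra5 Map2k1 (0.99) and Prrt2 (0.98). For Gabrb2 they were Usp37 (0.98, with a long exon sum of 11081 bases) and Elovl6 (0.98), and for Gabrd Rad51d (0.98) and Traf7 (0.96). These are the highest of 8384 values for each subunit, picked for being high, and the genes compared share libraries, depth and the length trend.

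The rest of the receptor family and its pathway was read from the same fit, with no length correction unless stated. Of the 12 other GABA-A subunit genes 7 passed the filter on low counts and 0 were called; 2 had a log2 fold change above 0 and 5 below (median -0.0059). Gabrg1 was at 28.7 ± 1.03 against 25.1 ± 2.53 CPM (-0.20, SE 0.09, unadjusted p = 0.0588, edgeR adjusted p = 0.996). NIHHL replicate 2, at 28.4 CPM, lay within its Control range of 28.1 to 29.9 CPM and the other 3 NIHHL libraries lay below it. Gabrg3 had a log2 fold change of 0.12 (SE 0.11). Gabrq, the theta subunit, had -0.86 (SE 0.45) at 4 to 35 counts per library, too few for a firm value. The 5 subunits that did not pass the filter, Gabra6, Gabre, Gabrp, Gabrr1 and Gabrr3, had at most 11 counts in any library.

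Of 28 genes that cluster and traffic the receptor, 15 had a log2 fold change below 0 and 13 above, with a median of -0.0075 and 0 called. Plcl1, a protein that binds GABA-A receptors and affects their traffic, was at 43.0 ± 3.50 CPM in Control and 52.4 ± 7.72 CPM in NIHHL (log2 fold change 0.29, SE 0.11, unadjusted p = 0.0245, edgeR adjusted p = 0.996). Its NIHHL libraries were at 49.7, 48.4, 47.6 and 63.9 CPM and its highest Control library at 46.1 CPM, so the groups did not overlap. Plcl1 was the only 1 of the 28 without overlap and the only 1 with an unadjusted p under 0.05. Over all genes these shares were 5.20% and 3.63%, so the list does not stand out, and Plcl1 was named for its small p. Without NIHHL replicate 4 the log2 fold change of Plcl1 was 0.18 (unadjusted p = 0.0523). The auxiliary protein Shisa7 had 0.19 (SE 0.10), Hap1, which helps return receptors to the surface, -0.18 (SE 0.11), and Gabarapl1, of the GABARAP family, -0.11 (SE 0.07). With the length correction Gabarapl1 was -0.06. Without Control replicate 2 Hap1 was -0.0497 and Gabarapl1 -0.0588.

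Genes of GABA synthesis, release, uptake and breakdown had 8 values above and 4 below 0 of 12 tested, a median of 0.03 and 0 called. The vesicular GABA transporter Slc32a1 had a log2 fold change of -0.10 (SE 0.08), the glutamine transporter Slc38a1 0.11 (SE 0.09) and glutamine synthetase Glul 0.09 (SE 0.08). The transporter Slc6a12 had 0.46 (SE 0.41) at 7 to 18 counts per library. Of the 12 interneuron markers, the cells that release GABA, 0 were called and the median was -0.01; their summed level was 803 to 848 CPM in Control and 798 to 840 CPM in NIHHL.

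The metabotropic GABA-B receptors and their KCTD auxiliary subunits had 6 genes tested, 0 called and log2 fold changes from -0.10 to 0.03. Gabbr1 was at 691 ± 26.3 CPM in Control and 684 ± 16.3 CPM in NIHHL, and Gabbr2 at 276 ± 24.1 and 278 ± 13.4 CPM. Kctd16 had a log2 fold change of -0.10 (SE 0.14) and Kctd12 of 0.03 (SE 0.14). The 12 genes of chloride transport, which set the gradient that GABA-A channels use, had a median of 0.04 with 8 above 0 and 0 called. Oxsr1, a kinase that regulates chloride cotransporters, had 0.19 (SE 0.09, unadjusted p = 0.0573, edgeR adjusted p = 0.996), its upstream kinase Wnk1 0.14 (SE 0.10), Wnk2 0.05 (SE 0.07) and the cotransporter Slc12a2 0.27 (SE 0.22). Slc12a2 is also high in choroid plexus, whose markers are given above. With the choroid plexus score as a covariate the log2 fold change of Slc12a2 was 0.06 (SE 0.15). The part of choroid plexus content in the Slc12a2 values was not tested.

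Neurosteroids raise the activity of GABA-A receptors, those with delta above all. Of 10 genes for neurosteroid and endozepine ligands 8 were tested, 6 had values above 0 (median 0.16) and 0 were called. Cyp11a1, which makes the first steroid from cholesterol, had 1.42, 0.713 and 1.08 CPM in the Control libraries and 4.37, 2.87, 2.53 and 0.531 CPM in NIHHL (log2 fold change 1.31, SE 0.57, unadjusted p = 0.0467, edgeR adjusted p = 0.996). Of the NIHHL libraries 3 lay above every Control library and replicate 4 lay below them all. Star, which brings cholesterol into mitochondria, had 0.26 (SE 0.16), Cyp7b1 0.14 (SE 0.10) and Akr1c18 0.39 (SE 0.41).

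**Figure D5:**
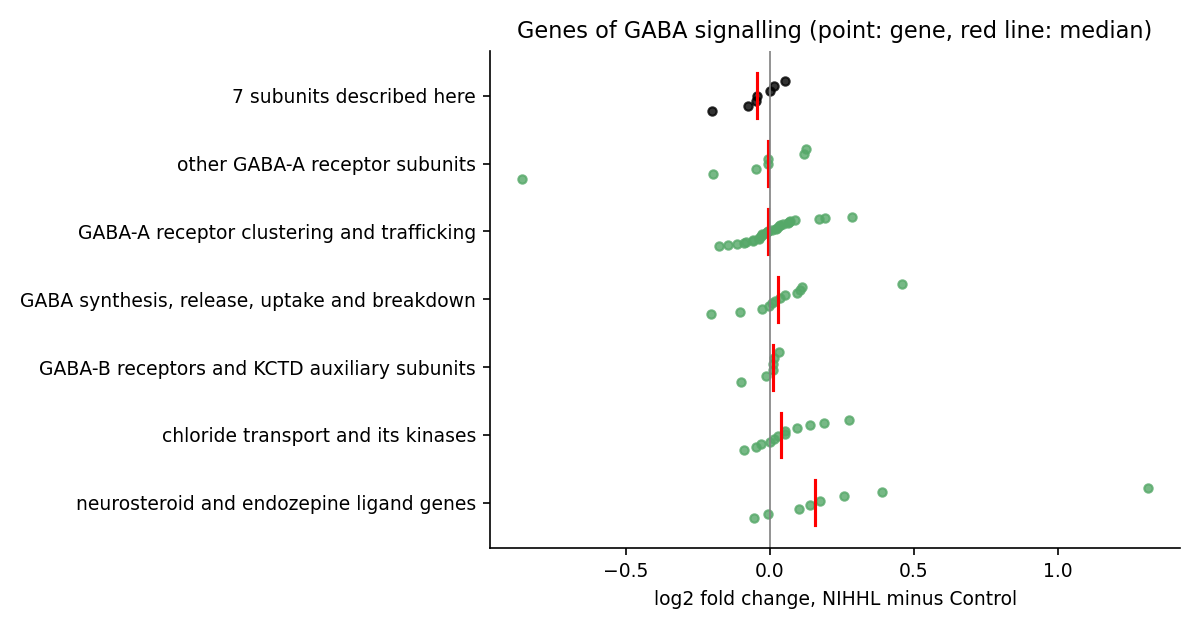
Log2 fold change, NIHHL minus Control, of each tested gene (points) in the 7 subunits described here and in 6 lists of GABA signalling, with the median of each list in red. The medians lie between -0.05 and 0.16, and no gene was called.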

How the data were processed

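The authors deposited expected counts per gene for 7 libraries, not scaled to library size; 90.7% of the values were exactly whole as written. Per the submitters' processing notes, StringTie 1.3.1, HISAT2, DESeq2 and Bowtie2 2.2.8 were used, with no roles stated; the sources used here do not give the build, annotation or way of counting.

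Counts were rounded, filtered with filterByExpr (minimum count 10; 14417 genes holding 99.96% of counts) and scaled by TMM. Groups were compared with edgeR's quasi-likelihood test (robust, group as the term), with Benjamini-Hochberg adjustment over all genes; log2 CPM has a prior count of 2. Software was R 4.3.3, edgeR 4.0.16, limma 3.58.1 and DESeq2 1.42.0. Lengths are merged exons of GENCODE M21. The length correction is a loess (span 0.5) of each library's deviations on log2 length, used as an offset. Simulated counts were run through the fits, with planted changes larger than those of the subunits and no length trend. They do not test differences as small as those of the subunits, nor the removal of a length trend. The members and lists were chosen with earlier results of these data known. Named genes are the members, the up to 4 genes of each list with the smallest p, and the 2 genes most like each member; 1 gene so named is not reported here. Same-numbered libraries did not deviate together. No 2 libraries of a group agreed within counting noise. Alternatives changed normalization, filter, tool, libraries, block, length and choroid plexus covariate.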

Additional observations from a re-analysis of the deposited data

Results flagged for a closer look

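The Plcl1 level in NIHHL replicate 4, 63.9 CPM, stood apart from the other 3 NIHHL libraries, at 47.6 to 49.7 CPM, by Dixon's criterion (its gap to the nearest library was 0.872 of the group's range). The criterion was applied to 30 genes in the NIHHL group, where chance flags about 1 in 20 groups.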

How the results depend on the processing

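None of the 7 subunits was called under any of the 17 alternatives run. The number of genes called over the whole table, 0 with edgeR, was 4 with DESeq2 and 1 with Control replicate 2 and NIHHL replicate 4 left out. Gabra3, Gabra4 and Gabra5 kept the sign of their log2 fold change under all 17 alternatives. None of these used TPM, on which the Gabra4 group means were 48.7 in Control and 48.9 in NIHHL. Signs turned for Gabra2, Gabrb1, Gabrb2 and Gabrd and for some pathway genes, and the cause was not tested. Gabrb2 was 0.000669 with upper quartile scaling, 0.0063 with a minimum count of 50, 0.0065 with limma-voom and 0.0541 with the choroid plexus score as a covariate, where Gabra2 was 0.0406 and Kctd16 0.0156. With Control replicate 2 and NIHHL replicate 4 left out, Gabrb1 was -0.10, Kctd12 -0.15, Gabbr2 -0.0657, Gabrg3 -6.17e-04 and Wnk1 -0.0268. With the length offset Gabbr2 was -1.97e-04. With the replicate number as a block Gabrb1 was -0.0402, Kctd12 -0.0809 and Gabbr2 -0.0215, and Gabra3 was -0.16 (unadjusted p = 0.127). Same-numbered libraries had correlations of deviations of -0.52, -0.33 and -0.04, so no pairing by replicate number was seen. The deviations also hold the length trend and choroid plexus differences between libraries, which could hide a pairing, so none is excluded.

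Leaving out each library in turn gave ranges of -0.19 to 0.0585 for Gabra2, -0.26 to -0.13 for Gabra3, -0.11 to -0.0042 for Gabra4, -0.14 to -0.01 for Gabra5, -0.0406 to 0.15 for Gabrb1, -0.10 to 0.0880 for Gabrb2, -0.0388 to 0.0757 for Gabrd, -0.23 to 0.0596 for Kctd16, -0.0385 to 0.0156 for Gabbr1, -0.0870 to 0.17 for Kctd12, -0.0321 to 0.0824 for Gabbr2 and -0.0655 to 0.73 for Akr1c18, whose main value was 0.39. Pathway genes that kept their sign also moved by over 1.5 times: Hap1 -0.31 to -0.0497, Gabarapl1 -0.16 to -0.0588, Shisa7 0.0998 to 0.31, Slc38a1 0.0222 to 0.20, Slc6a12 0.11 to 0.75, Oxsr1 0.12 to 0.29, Wnk1 0.0200 to 0.21, Wnk2 0.0132 to 0.10, Slc12a2 0.14 to 0.42, Cyp7b1 0.0345 to 0.21, Star 0.16 to 0.44, Gabrq -1.20 to -0.37, Gabrg3 0.0539 to 0.19, Glul 0.0572 to 0.14 and Plcl1 0.18 to 0.34. With the longest transcript as the length, levels were 51.5 TPM for Gabra3, 59.3 for Gabra4, 202 for Gabra5, 38.4 for Gabrb1, 50.7 for Gabrb2 and 17.9 for Gabrd. With 3 and 4 libraries the 95% intervals allow changes of over 10% in at least 1 direction for each subunit.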
